A study of Gallus gallus with 6 samples.

Results

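Chromosome 25 of the chicken is a microchromosome, and the 193 genes described here are those rows of the deposited count table that lie on it and had at least 10 reads in at least 3 of the 6 libraries. They were taken from 358 annotated rows on the chromosome and 24356 rows in the whole table, and the rule does not use the difference between the groups. With 3 libraries per group, a row can still meet the rule through 1 group alone. The libraries are poly(A) RNA of dorsal neural folds, labelled as neural crest, from Leghorn White chicken embryos at Hamburger-Hamilton stage 9. Each embryo was injected on both sides, with a morpholino against TGFB1 on one and the GTBlue-Control morpholino on the other, both at a final concentration of 1 mM, so that no group is without a morpholino. Morpholinos are synthetic antisense oligomers that keep a target RNA from being translated or spliced. TGFB1 encodes a secreted ligand whose receptors signal through SMAD2 and SMAD3. The labels call the control sides wild type and the other sides TGFB1 knockdown. The 6 libraries form 3 numbered pairs, each with the control side and the TGFB1 morpholino side of 1 embryo (n = 3 per group). Which side was left or right is not given in the labels, and which other cells the dissected folds held was not measured.

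The avian epidermal differentiation complex is a cluster of small genes for proteins that are cross-linked into the cornified outer layer of skin. It is bordered by S100A genes, which encode small calcium-binding proteins, and it includes the corneous beta-proteins, also called beta-keratins, from which scales, claws, beaks and feathers are built. These genes are known for their use late in development, in differentiating epidermis, while the neural folds at stage 9 are early ectoderm from which neural crest cells begin to leave. The RefSeq table for the later chicken assembly GRCg7b lists 386 genes on chromosome 25. Between S100A11 and S100A12 it lists 113 genes in a row, 101 of them with a placeholder in place of a symbol. The symbols in that interval include CRNN, the gene of cornulin, then F-KER, EDBETA, EDYM1, EDCH3, EDMPN2 and EDSC. The interval also holds genes of other functions, such as MAT2A, which encodes a methionine adenosyltransferase. Outside it lie, for example, NES, which encodes the intermediate filament protein nestin of neural progenitors, and CRABP2, which encodes a retinoic acid-binding protein. The deposited table gives Ensembl IDs and galGal6 positions, and 0 of its 24356 IDs matched the RefSeq table. No value below is therefore tied to a gene name. Genes are given by galGal6 position, or by ID for 4 of them, the labelled tissue was not checked against marker genes, and the level of TGFB1 was not checked.

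Total counts ran from 5350165 to 12256492 per library, of which chromosome 25 held between 66400 and 151177. A count of 3, the limit that a count of 0 allows, corresponds to between 0.245 and 0.561 CPM (counts scaled to library size) across the libraries, a limit that covers counting error only. The TGFB1 morpholino library of pair 1 had the highest share of mitochondrial counts, 11.9%, against 3.59% to 7.20% in the other 5. The counts of called members and the calls within runs are also given without pair 1. Calls by window and fold changes of single genes come only from fits to all pairs, and some of these values change without pair 1. For the 4 genes printed by ID, the fold changes without pair 1 are given at the end.

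Of the 358 rows, 193 (53.9%) passed the count rule, and on the other chromosomes 12619 of 23998 rows (52.6%) passed the same rule. Another 83 rows had at least 1 count, and 82 rows (22.9%) had none in any library, against 21.1% of the rows elsewhere. The members were read in every library, since all 193 had a count in each of the 6, and 164 of them had at least 10 counts in all 6. At the threshold, 4 members had a third-highest count of exactly 10, for example 15, 10 and 7 counts in the controls of pairs 1, 2 and 3 and 13, 6 and 8 on the TGFB1 morpholino side for the row from 152758 to 153848. Just outside it, 2 rows had a third-highest count of 9. Members and other rows also differed in structure, which the rule did not use: 12 of the 193 members had at most 2 exons, against 102 of the 165 other rows. The median member had 7 exons and 1968 bases of merged exon sequence, and the median of the other rows was 2 exons and 808 bases. Longer rows collect more reads at the same level per base, so the count rule itself favours them.

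Silence was concentrated in a few places. There were 5 stretches of at least 5 consecutive rows without a member, with 87 rows in all, and 62 of the 82 rows at 0 lay in them. The longest 2 of these stretches held 69 rows, of which 55 had no count in any library. Both were arrays of small, closely spaced genes.

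The longer array ran from 2150063 to 2283598 and held 37 rows in 133.5 kb, with a median of 2.88 kb from start to start. Of these, 32 had at most 2 exons, the median exon length was 631 bases, and 8 rows had the same exon length of 366 bases. Its 37 rows together received 11, 6 and 2 counts in the controls of pairs 1, 2 and 3, and 1, 4 and 2 counts on the TGFB1 morpholino side. That is at most 0.897 CPM of the unscaled totals in any library for the whole array, and 29 of the 37 rows were at 0 throughout. It was bordered by expressed genes on both sides. The member before it, from 2100996 to 2106345, had 6.26 ± 1.54 CPM in the controls and 3.85 ± 1.87 CPM where TGFB1 was targeted (SD, n = 3). The member after it starts at 2291057 and had 396.6 ± 19.1 CPM in the controls and 439.8 ± 26.6 CPM on the other side (SD, n = 3). Neither passed the test between the sides described below. That second member spans 2291057 to 2407537, and inside its span lay another silent stretch, from 2303369 to 2354085, whose 7 rows received between 0 and 4 counts per library.

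The other array ran from 3145569 to 3308639 and held 32 rows with a median spacing of 2.94 kb and a median exon length of 417 bases. Of these, 27 had at most 2 exons, and 26 were at 0 in all 6 libraries. It received 67 counts in all, 53 of them in its first row, from 3145569 to 3148245, which overlaps a member. The rest of the rows shared 14 counts. The member at its left end, from 3126151 to 3147836, had 10.2 ± 2.03 CPM in the controls and 13.2 ± 4.06 CPM where TGFB1 was targeted (SD, n = 3), and the member that starts first after its last row by order, from 3288182 to 3290545, had 0.723 ± 0.181 and 1.90 ± 0.482 CPM (SD, n = 3). Both of these members lie at least partly inside the interval given for the array, because rows were ordered by start. At this depth, no row of the longer array had more than 4 counts in any library. The first row of the second array had up to 20 counts in 1 library. Whether these reads belong to the member it overlaps was not tested. The sequences of these rows were not compared, and how reads that match several places were counted is not given in the sources used here. A count of 0 in such an array therefore does not show that no RNA was made. The other 2 stretches lay from 494021 to 610730, with 5 rows and 17 counts, and from 2449884 to 2479000, with 6 rows and 11 counts. An interval of 526.9 kb, from 738552 to 1265438, carried no annotated row at all.

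**Figure D1:**
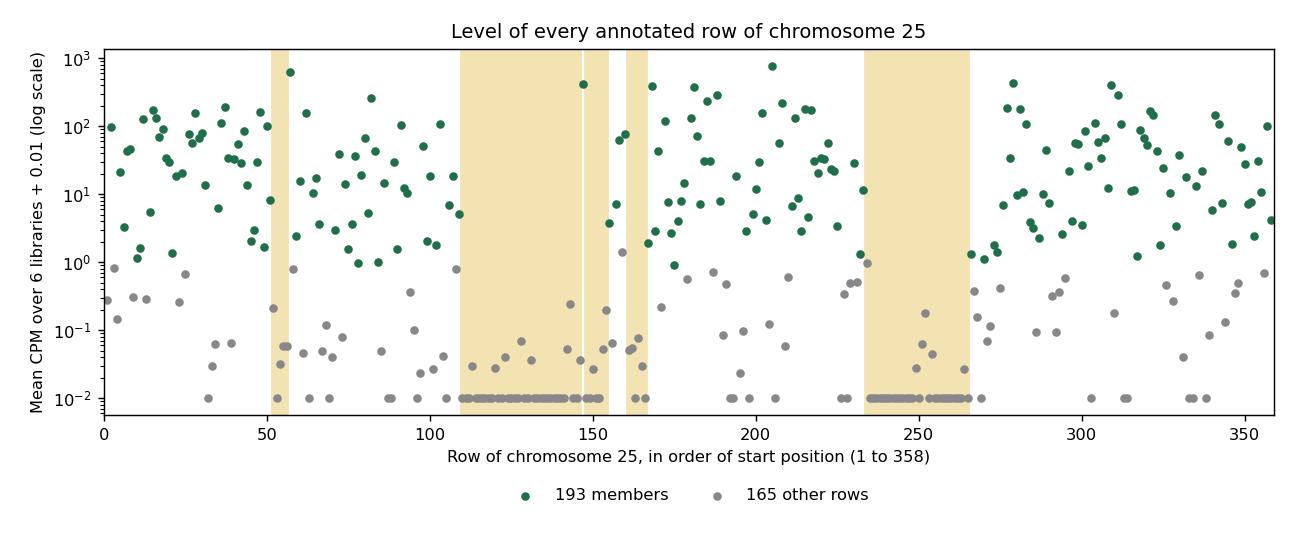
Mean CPM over the 6 libraries plus 0.01 (log scale, y) of all 358 rows of chromosome 25 in order of start position (x), with the 193 members in green, the 165 other rows in grey and the 5 silent stretches shaded. The 2 widest shaded blocks are the arrays of 37 and 32 rows, in which 29 and 26 rows were at 0 in all 6 libraries.

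Expressed genes also came in unbroken blocks. There were 14 stretches of at least 5 consecutive rows that were all members, with 118 of the 193 members in them, and the longest held 15 rows from 2911727 to 3029971. In windows of 250 kb by start position, members made up 81.3% of the rows in the window from 3500001 to 3750000 and 79.3% in that from 250001 to 500000. They made up 8.33% in the window from 2000001 to 2250000, 24.1% in that from 2250001 to 2500000 and 25.6% in that from 3000001 to 3250000. The longer array spans the windows that start at 2000001 and 2250001, and the other array begins in the one that starts at 3000001.

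Per kb of exon, the members spanned a wide range, from 0.286 to 559.1 CPM per kb with a median of 12.6, and the median of the other rows that passed the same rule was 11.7 CPM per kb. The highest level per kb belonged to a member with 4 exons and 417 bases of exon sequence, from 2633647 to 2636309. It had 499.4, 568.4 and 648.6 CPM per kb in the controls of pairs 1, 2 and 3, and 504.9, 432.5 and 700.9 CPM per kb on the TGFB1 morpholino side, so the groups overlapped. Next came the member from 2843844 to 2844777, with 304.9 to 431.9 CPM per kb in the controls and 313.1 to 450.0 on the other side, and it lies within the span of a row on the opposite strand. The member from 2617131 to 2622609 had 321.5 to 411.7 CPM per kb in the controls and 214.1 to 399.4 on the other side. The fourth and the fifth, from 1987363 to 1989827 and from 383948 to 386254, had means of 217.8 and 207.4 CPM per kb over the 6 libraries. None of these 5 members passed the test between the sides, with adjusted p of 0.22 to 0.72 by edgeR.

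The chromosome as a whole took 1.21 ± 0.0487% of all counts in the controls and 1.20 ± 0.0801% where TGFB1 was targeted (SD, n = 3). In pair 1 the share was 1.23% in the control and 1.29% on the other side, in pair 2 it was 1.15% and 1.13%, and in pair 3 it was 1.24% and 1.19%. A two-sided exact sign-flip test on the 3 pair differences gave p = 1, where 3 pairs allow no p below 0.25.

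The comparison of the sides asks which of these transcripts differ in level where TGFB1 was targeted. It was made within embryos, with edgeR's quasi-likelihood test on all genes of the table that passed its filter on low counts, and a false discovery rate of 0.05 over all of them. All 193 members but 4 passed that filter. Of the 189 tested members, 26 were higher on the TGFB1 morpholino side (13.8%), where 7.15% of all 12736 tested genes were higher, and 36 were lower (19.0%), where 8.81% of all tested genes were lower. Fewer cells of a type and less RNA per cell cannot be told apart in these bulk samples. The median log2 fold change of the 189 members was -0.046, and that of all tested genes was 0.0032. Among the members that rose the median was 0.88, and among those that fell -1.09, with changes of at least 2-fold in 12 and 19 of them. The CPM of the groups did not overlap for 35 members that were higher and 36 that were lower, where 14.3% of all tested genes were higher without overlap and 14.4% lower. Both counts of called members fell in a fit with no replicate block, to 9 higher and 11 lower, where 2.12% and 3.35% of all tested genes were called. The DESeq2 Wald test called 17 members higher and 28 lower, where 4.62% and 7.14% of all genes with an adjusted p were called. Without pair 2, edgeR called 18 higher and 22 lower, where 3.53% and 5.25% of all tested genes were called. The counts were 19 and 35 without pair 1, against 7.42% and 10.4% of all tested genes, and 20 and 27 without pair 3, against 6.18% and 7.59%.

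The side difference in log2 CPM correlated over the 189 members at 0.78 between pairs 1 and 2, 0.65 between pairs 1 and 3, and 0.71 between pairs 2 and 3. Over all tested genes the values were 0.61, 0.43 and 0.58. These are correlations across genes of the same 2 libraries per pair, and genes are not independent replicates. All 3 pairs went the same way in 62 members that were higher (32.8%, against 26.2% of all tested genes) and in 63 that were lower (33.3%, against 25.9%). The balance differed from pair to pair. In pair 1, 111 members were higher and 78 lower on the TGFB1 morpholino side, with a median log2 difference of 0.088. In pair 2, 81 were higher and 108 lower (median -0.11), and in pair 3, 87 were higher and 102 lower (median -0.050). The median over all tested genes was 0.0060, -0.0046 and 0.0098 in the same pairs. The middle 50% of members lay between log2 differences of -0.39 and 0.54 in pair 1, -0.53 and 0.22 in pair 2, and -0.51 and 0.21 in pair 3.

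**Figure D2:**
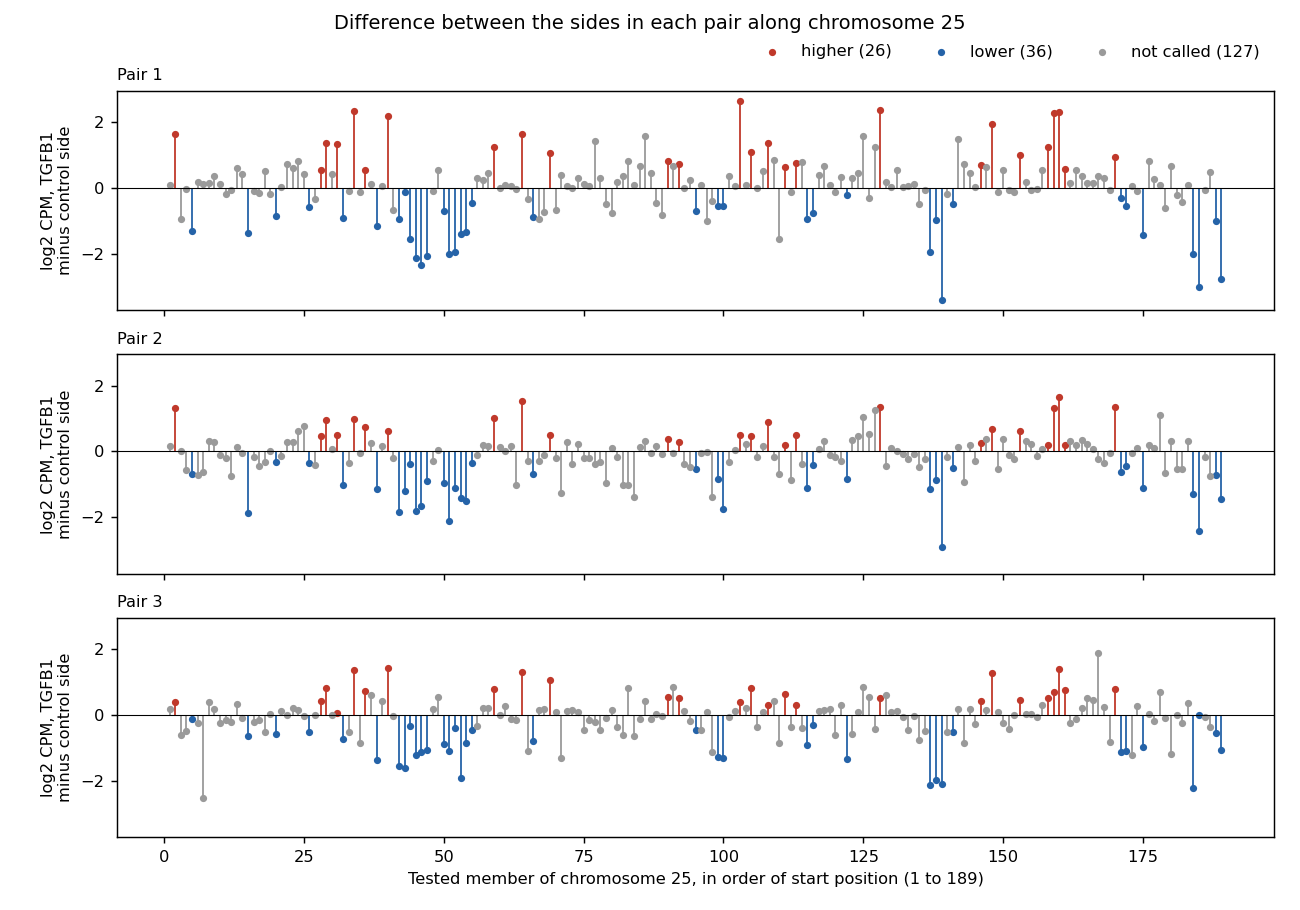
Difference in log2 CPM between the TGFB1 morpholino and the control side (y) of the 189 tested members in order of start position (x), 1 panel per pair, coloured by the edgeR call over all 3 pairs (26 higher, 36 lower, 127 not called). Above 0 lie 111, 81 and 87 of the 189 members in pairs 1, 2 and 3.

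Members also varied between embryos within a group. The median SD of log2 CPM between the 3 controls was 0.19 over the tested members and 0.20 over all tested genes. Between the 3 TGFB1 morpholino libraries it was 0.35 over the members and 0.26 over all tested genes. More than 2-fold between the lowest and the highest library were 17 members in the controls and 48 on the TGFB1 morpholino side. These counts were not set against all tested genes, whose median SD was also higher on that side.

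Among members that averaged at least 5 CPM and moved 1 way in all pairs, the largest fold increase was that of ENSGALG00000043021.3, with 13 exons on the plus strand from 3671693 to 3678692. It had 3.67, 6.58 and 4.83 CPM in the controls of pairs 1, 2 and 3, and 19.4, 21.1 and 13.1 CPM on the TGFB1 morpholino side. The lowest library of the TGFB1 morpholino side lay above the highest control. The means were 5.03 ± 1.47 and 17.8 ± 4.21 CPM (SD, n = 3), a 3.64-fold increase (log2 1.86, SE 0.24, edgeR adjusted p = 2.90e-04). Its span overlaps members on both sides on the same strand, by 15 bases with the one that ends at 3671707 and by 3336 bases with the untested one from 3675357 to 3682115, so the division of reads between them is uncertain.

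The smallest p among the members that rose belonged to ENSGALG00000048409.1, with 7 exons on the plus strand from 1948755 to 1958413 and no overlapping row. It had 32.2, 26.9 and 19.9 CPM in the controls and 100.2, 78.7 and 48.8 CPM on the TGFB1 morpholino side of pairs 1, 2 and 3. In both groups pair 1 was the highest and pair 3 the lowest, and every pair rose, by 1.63, 1.54 and 1.29 on the log2 scale. The means were 26.3 ± 6.17 and 75.9 ± 25.8 CPM (SD, n = 3), a 2.84-fold increase (log2 1.51, SE 0.14, edgeR adjusted p = 3.74e-05).

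By the same rule the largest fold decrease was that of ENSGALG00000054130.1, with 7 exons on the plus strand from 3943487 to 3949657. It had 18.1, 6.94 and 11.9 CPM in the controls and 4.37, 2.69 and 2.35 CPM on the TGFB1 morpholino side of pairs 1, 2 and 3. The groups did not overlap, although the controls spanned a range of more than 2-fold. The means were 12.3 ± 5.60 and 3.14 ± 1.08 CPM (SD, n = 3), which the fit put at a log2 change of -1.91 (SE 0.27, edgeR adjusted p = 5.43e-04). Its span overlaps members on both sides on the same strand, so the division of reads between them is uncertain. With the one from 3942259 to 3945041 it shares 1555 bases, and that neighbour was not called (log2 fold change 0.25, edgeR adjusted p = 0.49). With the one from 3945563 to 3951047 it shares 4095 bases, and that neighbour was also called lower (log2 fold change -1.99, edgeR adjusted p = 0.033). This second neighbour fell by 3.02 and 2.41 on the log2 scale in pairs 1 and 2. In pair 3 it was level, with 2.23 CPM in the control and 2.22 CPM on the other side.

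The smallest p among the members that fell belonged to ENSGALG00000049193.1, which has 37 exons on the minus strand from 1473405 to 1509424 and no overlapping row. Its controls had 62.3, 45.3 and 56.4 CPM, and the TGFB1 morpholino libraries 23.5, 16.9 and 14.7 CPM in pairs 1, 2 and 3. It fell by 1.40, 1.41 and 1.93 on the log2 scale in the 3 pairs. The means were 54.7 ± 8.67 and 18.3 ± 4.61 CPM (SD, n = 3), with a fitted log2 change of -1.58 (SE 0.16, edgeR adjusted p = 5.79e-05).

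**Figure D3:**
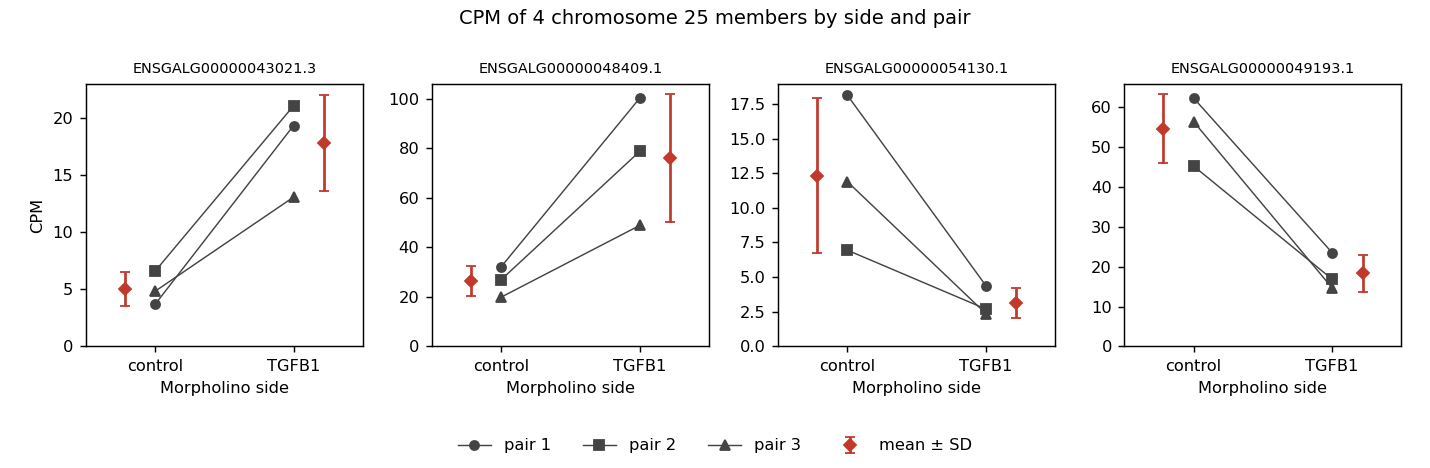
CPM (y, from 0) of 4 members on the control and the TGFB1 morpholino side (x), with lines joining the sides of each pair and diamonds with bars for the mean ± SD of 3 libraries. The first 2 genes were higher on the TGFB1 morpholino side in all 3 pairs and the last 2 lower in all 3.

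Below a mean of 5 CPM, where few reads carry each value, 5 of the 26 members that rose and 10 of the 36 that fell were found. The largest fold change of all 189 members was among them, and it was singled out after its values were seen. The row from 3455048 to 3456659, with 3 exons on the plus strand, had 70, 32 and 16 counts in the controls and 3, 3 and 4 counts on the TGFB1 morpholino side of pairs 1, 2 and 3. In CPM this was 5.71, 3.76 and 2.97 against 0.328, 0.310 and 0.523, a fitted log2 fold change of -3.40 (SE 0.48, edgeR adjusted p = 5.97e-04). This row met the count rule only through the controls, the group in which it was higher. How many called members met the rule through 1 group only was not counted.

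Counts of called members by window are descriptions, with no test of their spread along the chromosome. In the window from 1250001 to 1500000, 7 of 9 tested members fell by edgeR, 6 of 9 by DESeq2, and 0 rose by edgeR (1 at an unadjusted p under 0.05, and 0 by DESeq2 or limma-voom). The median log2 difference of the 9 was -1.95, -1.11 and -1.06 in pairs 1, 2 and 3. The summed level of its members was 191.1, 149.8 and 157.2 CPM in the controls and 101.5, 79.8 and 99.0 CPM on the TGFB1 morpholino side. Each TGFB1 morpholino library thus held 0.53, 0.53 and 0.63 of its control, and the groups did not overlap. In the window from 3500001 to 3750000 the balance was the other way, with 7 of 25 tested members higher by edgeR, 6 by DESeq2, and 0 lower by edgeR, also at an unadjusted p under 0.05 and by DESeq2 or limma-voom. Its summed level was 1784, 1856 and 1806 CPM in the controls and 2263, 1976 and 2030 CPM on the TGFB1 morpholino side, again without overlap. The window from 2750001 to 3000000 had 5 of 17 tested members higher and 2 lower by edgeR, against 4 and 1 by DESeq2, and its summed level was 1.27, 1.15 and 1.13 times the control in pairs 1, 2 and 3. These 3 were the only windows, of the 14 with members, whose summed levels did not overlap between the groups. Windows of other chromosomes were not summed, so this count has no share to be set against. Among all tested genes taken singly, 14.3% were higher and 14.4% lower without overlap.

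Some of the other windows held both directions or mostly decreases. From 250001 to 500000, 6 of 23 tested members rose and 4 fell by edgeR, against 3 and 3 by DESeq2. From 3750001 to 4000000, 7 of 21 fell by both, and 1 rose by edgeR but not by DESeq2. The window from 500001 to 750000 held 4 tested members, of which 3 fell by edgeR and 1 by DESeq2. The fourth, from 639275 to 652509, took 663.6, 641.5 and 766.8 CPM in the controls and 420.6, 556.4 and 740.6 CPM on the TGFB1 morpholino side. It was lower by 0.66 in pair 1 and by 0.21 and 0.050 in pairs 2 and 3 on the log2 scale, and it did not pass the test (log2 fold change -0.30, edgeR adjusted p = 0.21). The windows that contain the longer silent array, from 2000001 to 2250000 and from 2250001 to 2500000, held 10 tested members, of which 1 rose by edgeR and limma-voom but not by DESeq2. In these windows 0 fell by edgeR, also at an unadjusted p under 0.05 and by DESeq2 or limma-voom. The windows that contain the other array held mostly decreases among their calls. From 3000001 to 3250000, 0 of 10 tested members rose and 3 fell by edgeR, against 0 and 2 by DESeq2. From 3250001 to 3500000, 1 of 19 rose and 4 fell by edgeR, against 0 and 3 by DESeq2.

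**Figure D4:**
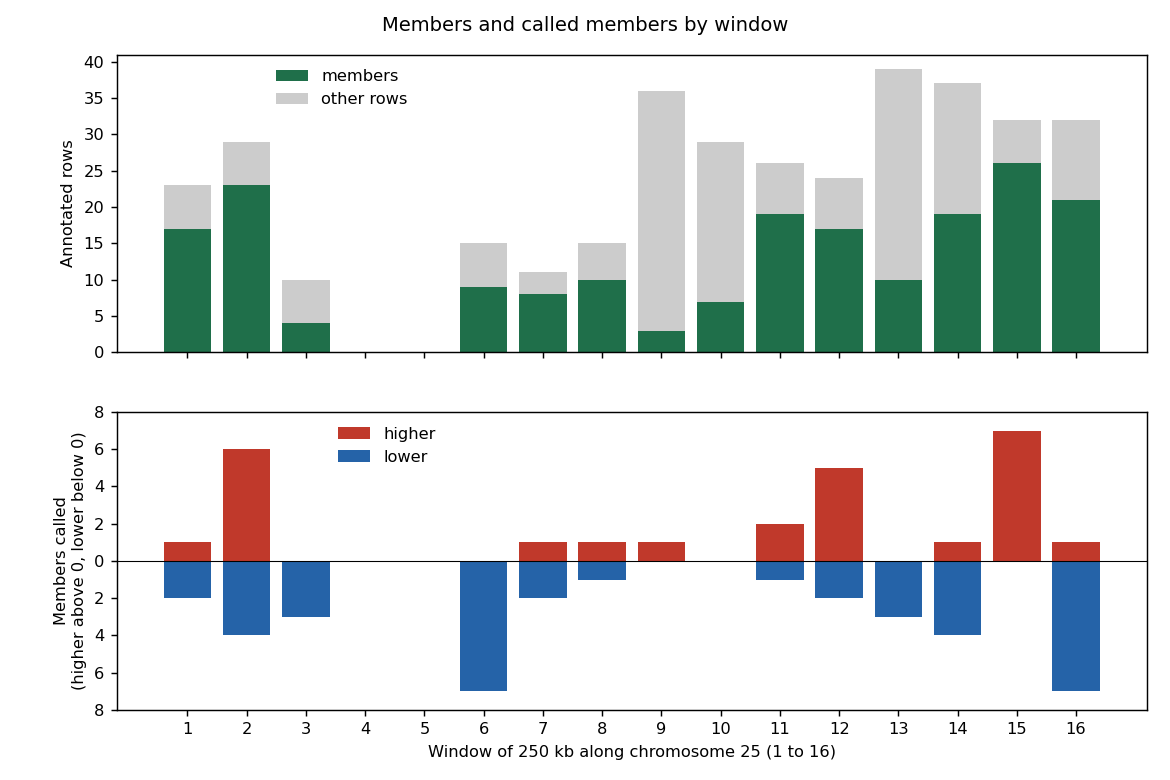
Annotated rows (upper panel, y) and called members (lower panel, y, higher above 0 and lower below 0) in 16 windows of 250 kb along chromosome 25 (x), with members in green, other rows in grey, higher in red and lower in blue. Windows 9 and 13 hold many rows and few members, window 6 has 7 lower and 0 higher members, and window 15 has 7 higher and 0 lower.

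Of the 61 called members followed by another tested member, 21 (34.4%) were followed by one called in the same direction and 2 by one called in the other. On the other chromosomes, 282 of 1947 called genes followed by another tested gene (14.5%) were followed by one called in the same direction. Both shares are descriptions with no test, and such a share rises with the share of genes called. Overlap of annotated genes enters into it. Among 23 overlapping pairs of tested members, 7 had both members called, in the same direction each time, 5 of them on the same strand. Of the 62 called members, 29 overlapped another row of the table, and 14 of those that rose and 19 of those that fell did not. The part that reads shared between overlapping rows play in these counts was not tested.

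In 3 places, at least 4 tested members in a row were called in 1 direction, each called a run here. Runs and windows share members, so they are not separate findings. All 7 members that fell by edgeR in the window from 1250001 to 1500000 lie in the first or the second run. The 3 that fell by edgeR in the window from 500001 to 750000 lie in the first. The third run lies inside the window from 3500001 to 3750000. The first run, of 6 members that fell, lay from 674810 to 1323218 and straddled the interval without annotated rows. Its summed level was 281.2, 244.7 and 264.1 CPM in the controls and 96.8, 160.9 and 180.8 CPM on the TGFB1 morpholino side of pairs 1, 2 and 3. The median log2 difference of its members was -1.81, -1.42 and -1.17 in the 3 pairs, so by the median the decrease was largest in pair 1. The member from 674810 to 676969 fell least in pair 1, with -0.94, -1.84 and -1.56 in pairs 1, 2 and 3. So did the one from 677769 to 702522, with -0.11, -1.20 and -1.62. The other members of the run fell most in pair 1. Most of the sum came from the member from 723875 to 738551, with 194.4, 180.4 and 195.6 CPM in the controls and 66.3, 138.4 and 154.8 CPM on the other side. The strongest decreases in this run were those of the member from 1303643 to 1306226, from 16.3 ± 4.30 to 4.85 ± 1.58 CPM (SD, n = 3), and of its neighbour from 1308024 to 1316098, from 26.7 ± 10.3 to 7.63 ± 0.380 CPM (SD, n = 3). Both are on the minus strand, and the second overlaps the last member of the run by 304 bases.

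The second run, also of 6 members that fell, lay from 1436842 to 1527326 and holds ENSGALG00000049193.1. Its summed level was 190.9, 173.4 and 189.5 CPM in the controls and 99.0, 98.8 and 101.8 CPM on the TGFB1 morpholino side. The sums did not overlap, which the choice of members by the test itself favours. Most of the sum came from ENSGALG00000049193.1 and the member from 1522873 to 1527326. The median log2 difference of the 6 members was -1.36, -1.26 and -0.88 in pairs 1, 2 and 3. Its members lay on both strands, 4 on the plus and 2 on the minus, and their fitted log2 fold changes ran from -2.02 to -0.43. The member at -2.02, from 1453942 to 1456014, met the count rule only through the controls, the group in which it was higher. In 4 of the 6 the span overlapped another row. A member of low count from 1512783 to 1516847 lies among them and was not tested. Its log2 difference was -0.28, -1.24 and 0.66 in pairs 1, 2 and 3.

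The third run, of 4 members that rose, lay from 3654868 to 3686986 and holds ENSGALG00000043021.3. Its summed level was 155.5, 185.0 and 161.7 CPM in the controls and 326.0, 236.5 and 255.9 CPM on the TGFB1 morpholino side. The median log2 difference was 1.76 in pair 1 and 0.77 and 0.73 in pairs 2 and 3. The neighbours of ENSGALG00000043021.3 rose by less in the fit, with log2 fold changes of 1.52 for the one from 3664866 to 3671707, 0.66 for the one from 3654868 to 3663616 and 0.51 for the one from 3682741 to 3686986. A member of low count from 3675357 to 3682115 lies among them and was not tested.

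The members of the runs were chosen for passing the test in 1 direction, which also favours groups that do not overlap. Without pair 1 no run of 4 remained, with 4 and 5 of the members of the first 2 runs and 3 of the third still called. Without pair 2, 5, 2 and 4 members of the 3 runs were called, and without pair 3, 4, 5 and 3. With no replicate block there was also none, with 2, 3 and 2 members called. DESeq2 left the third run complete and called 4 of 6 members in each of the others. The fitted direction of each run member was the same in these 5 fits.

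**Figure D5:**
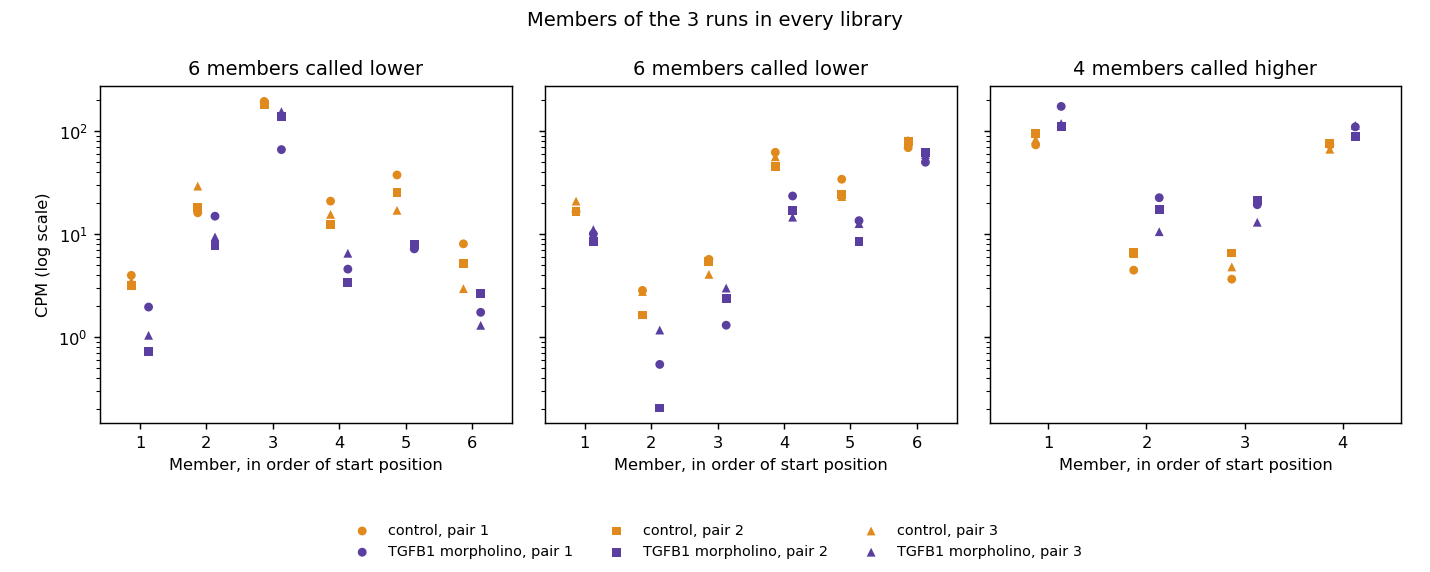
CPM (log scale, y) of each member of the 3 runs in order of start position (x) in every library, controls in orange and TGFB1 morpholino libraries in purple, with a marker shape per pair. In each of the 16 members all 3 purple points lie on 1 side of the orange points.

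Members that rose and fell also differed in structure, which was not an input of the test. The median number of exons was 10 among the 26 that rose, 5 among the 36 that fell and 7 among the 127 that were not called. The median exon length was 2388 bases among those that rose, 1562 among those that fell and 1867 among the others, and the median span was 7.30, 4.43 and 5.23 kb. At most 3 exons were found in 3 of the members that rose and 10 of those that fell. The median level was 13.8 CPM per kb among those that rose, 10.4 among those that fell and 14.2 among the others. These medians are descriptions, with no test. On the plus strand lay 14 of the 26 that rose and 15 of the 36 that fell.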

How the data were processed

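The deposited table holds the authors' raw read counts per gene, beside the position and strand of each exon and a merged exon length. Per the submitters' processing notes, cutadapt, HISAT2, featureCounts and the build galGal6 were used. Which versions, annotation release, strand setting and handling of reads with several matches were used is not given in the sources used here. Libraries were strand-specific, per the labels' protocols. Positions count from 1, and rows were placed by their first chromosome and start.

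Groups come from the genotype label and pair numbers from the titles. By the protocol the sides come from the same embryo, and same-numbered libraries deviated together from their group means (correlations of 0.49, 0.52 and 0.36 over all tested genes), so the number was a block. Over the 189 tested members these correlations were lower, at 0.072, 0.35 and 0.17. P-values of the paired fit set the side difference against its spread over 3 pairs, with that spread moderated across genes.

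The main test was run with edgeR 4.0.16 in R 4.3.3 (filterByExpr, TMM, quasi-likelihood F test, Benjamini-Hochberg adjustment over 12736 genes), and limma 3.58.1 and DESeq2 1.42.0 served as alternatives. The code was tested on simulated data. CPM use TMM-scaled library sizes, and log2 differences within pairs a prior count of 2. SE is the log2 fold change over the root of F. Exons were merged, and overlaps are of spans over all rows. Alternatives were another scaling, DESeq2, limma-voom, other filters, no replicate block, each pair left out, a false discovery rate of 0.1 and other member rules. Printed IDs are, per direction, the largest fold change and the smallest p of the rest among called members with at least 5 CPM and 1 direction in all pairs. The gene lists and markers planned for symbols were not used, because no ID could be paired with one. The members, windows, runs and lists were chosen with earlier results of these data known.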

Additional observations from a re-analysis of the deposited data

How the results depend on the processing

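With no replicate block, 9 members were higher and 11 lower, all among the 26 and 36 of the paired fit, and 0 runs were found. The DESeq2 Wald test called 17 higher and found 1 run. Fits without 1 pair called 18 to 20 members higher, 22 to 35 lower and 0 to 2 runs, where 3.53% to 7.42% of all tested genes were higher and 5.25% to 10.4% lower. The 35 came without pair 1 and the 22 without pair 2, and 29 and 22 of these were among the 36 of the full fit. Such fits estimate the spread from 2 embryos. Requiring 3 rows in place of 5 gave 12 silent stretches in place of 5, while member rules of 5 counts, 20 counts or 1 CPM kept the number at 5 with 208, 172 and 192 members. The difference in the chromosome's share of counts, -0.0060 percentage points, was 0.043 without mitochondrial rows and -0.036 to 0.016 without a pair, with no direction called. The counts of called members stayed within 1.5 times under the other settings, and the 4 printed IDs kept their direction in all of them. Without pair 1, the log2 fold change was 1.58 for ENSGALG00000043021.3 and 1.43 for ENSGALG00000048409.1. It was -1.82 for ENSGALG00000054130.1 and -1.67 for ENSGALG00000049193.1 in the same fit. With the member rule or no filter, the third run was parted by an added member and 2 runs were left. The member rule also parted and shortened the second run, by the added member from 1512783 to 1516847, which was not called. What caused the other changes was not tested. Depth limits what can be seen of low members: 45 of the 193 had a mean under 5 CPM.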
